A study of Mus musculus with 47 samples.

Results

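Jun and Jund, which encode the transcription factors c-Jun and JunD, were followed in mouse medial prefrontal cortex (PFC) after chronic intermittent ethanol (CIE). The members were all probesets (sets of short probes on an Affymetrix Mouse Genome 430 2.0 array) annotated to only 1 of the pair. These were 4 of 45037 probesets, 2 for Jun (1448694_at and 1417409_at) and 2 for Jund (1449117_at and 1440265_at). The pair was selected on its CIE minus Ctrl difference at 0h beside that of other early genes, so every value at 0h is given here as a description with no test. Jun and Jund were tested only in mice of other times. Calls of other genes at 0h come from the same contrast and are given as counts beside the share of all probesets, with nothing read from them. The pair had been described as rising. The 0h values that this rests on were higher in CIE mice for both Jun probesets, close to the Ctrl values for the brighter Jund probeset and lower for the other.

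All 47 mice were adult C57BL/6J males, with 1 mouse per array. CIE mice inhaled ethanol vapor (10 to 13 mg/l air) during 16 h of each day in 4-day bouts that alternated with 7 ethanol-free days, making 4 cycles. An injection of ethanol (1.6 g/kg) with pyrazole (1 mmol/kg) preceded each bout. Ctrl mice breathed air and received saline with the same dose of pyrazole. Pyrazole, an alcohol dehydrogenase inhibitor, was therefore shared by all groups and its own effect on Jun or Jund cannot be told apart from the baseline. Each combination of treatment and harvest time (0h, 8h, 72h and 7d from the end of exposure) had 6 mice, except for CIE at 8h, where 5 arrays were analysed.

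c-Jun and JunD belong to the AP-1 family, whose members bind DNA as pairs through a leucine zipper. A Jun protein can pair with another Jun protein or with a Fos protein, and the partners influence which genes are switched on. Jun is an immediate early gene that neurons also induce under stress, where c-Jun N-terminal kinases (JNK) phosphorylate its protein, while Jund is expressed steadily in most tissues and its protein often restrains growth.

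The start regions of the genes are shown because Jun is known for promoter elements through which AP-1 and MEF2 factors act on it. In RefSeq (GRCm38.p6), Jun is on the minus strand of chromosome 4, from 95049036 to 95052222, with 1 transcript listed. Jund is on the plus strand of chromosome 8, from 70697739 to 70700616, with 2 transcripts, and the window belongs only to the outermost start. The 250 bases before each start are printed 5′ to 3′ on the gene's strand, with motif matches in capitals.
Jun chr4:95052223-95052472: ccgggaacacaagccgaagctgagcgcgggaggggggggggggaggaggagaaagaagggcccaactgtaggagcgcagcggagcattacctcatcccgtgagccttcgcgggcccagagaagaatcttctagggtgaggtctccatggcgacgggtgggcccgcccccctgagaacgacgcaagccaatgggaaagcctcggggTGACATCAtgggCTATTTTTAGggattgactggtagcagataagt
Jund chr8:70697489-70697738: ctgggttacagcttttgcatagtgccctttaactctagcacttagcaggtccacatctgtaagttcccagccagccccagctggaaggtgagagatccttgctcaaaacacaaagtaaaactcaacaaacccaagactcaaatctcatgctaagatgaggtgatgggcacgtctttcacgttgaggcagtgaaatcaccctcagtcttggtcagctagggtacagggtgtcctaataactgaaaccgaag
The motif search covered these bases and the next 50, on both strands. The Jun window held TGACATCA, the AP-1 element for which the Jun promoter is known, at -45 to -38 from the start, and a MEF2 box, CTATTTTTAG, at -33 to -24, with no overlap between them. TGACATCA was present in 3.62% and a MEF2 box in 3.19% of 32851 RefSeq promoter windows of this length. TGAGTCA (5.2% of windows), TGACGTCA (1.79%) and a CArG box (1.63%) were searched too and were not in the Jun window, and the Jund window held none of the 5 motifs.

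Values were the deposited log2 expression values. Among markers of cortical projection neurons, 8 were measured under a single symbol and had mean levels between the 70.8 and 99.8 percentiles of all probesets. The array of CIE 8h mouse 15 stood apart, with a mean correlation with the other arrays of 0.967 against 0.985 for the next lowest and a median of 0.992. At 8h the arrays also came from 2 repeat groups, a label for which the authors adjusted the values, and repeat group 2 held 3 of the Ctrl and 2 of the CIE mice. All arrays of the other times were of repeat group 1. Level differences between 8h and other times, in orders of group means and Ctrl tests over time, cannot be fully told apart from repeat group. Differences of Jun and Jund at 8h are therefore given with and without mouse 15 and by repeat group.

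Jun was higher in CIE than in Ctrl mice at 0h on both of its probesets. On the brighter probeset, 1448694_at, the lowest, median and highest log2 levels were 8.78, 9.28 and 9.50 in Ctrl mice and 9.66, 10.10 and 10.79 in CIE mice at 0h. All 6 CIE mice were above all 6 Ctrl mice, a separation upward that 3.49% of all probesets had in this contrast and from which nothing is read, since the contrast served to pick the gene. The means were 9.19 ± 0.26 (SD, n = 6) and 10.20 ± 0.43 (n = 6), a difference of 1.00 (95% confidence interval 0.70 to 1.30) or 2.00-fold. Of all probesets, 43 had a larger difference upward. In bulk tissue, more RNA per cell and more cells that make Jun cannot be told apart.

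**Figure D1:**
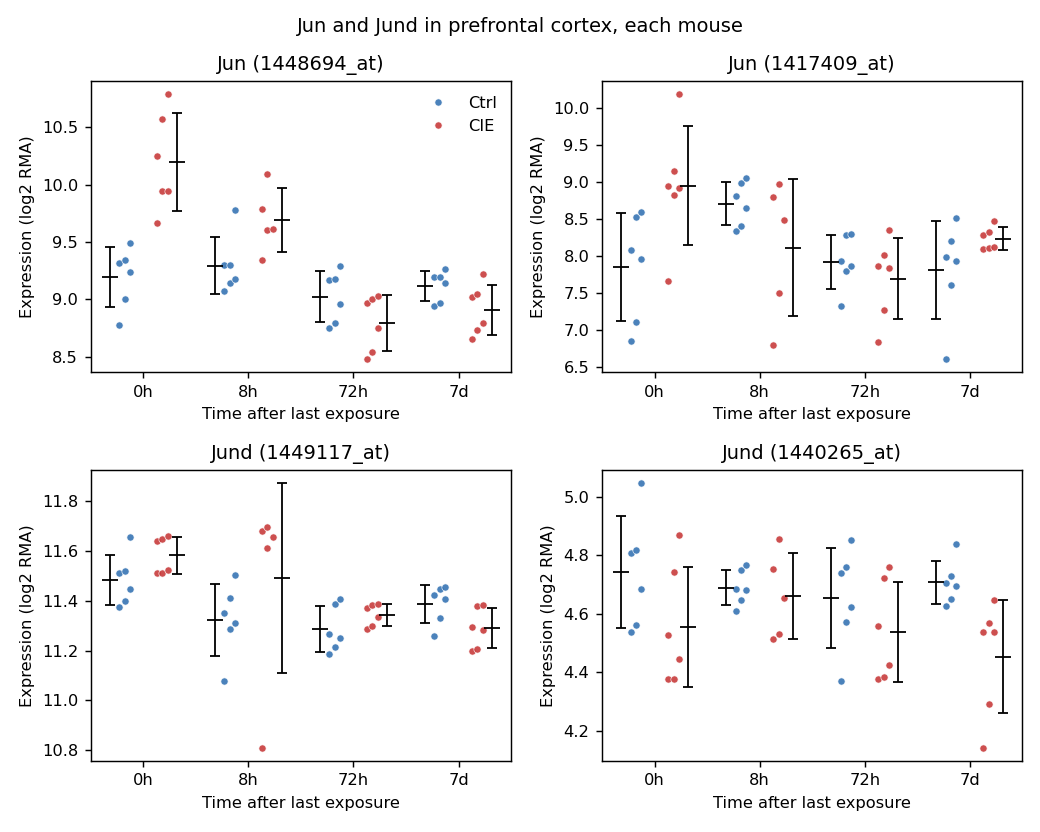
Log2 expression of the 4 Jun and Jund probesets in each mouse (points; Ctrl blue, CIE red) by time after the last exposure, with the group mean and SD in black; each panel has its own scale, which does not start at 0. CIE mice at 0h lie above all Ctrl mice for Jun 1448694_at only, and a single CIE mouse at 8h lies far below the others for Jund 1449117_at.

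The level of Jun on 1448694_at was ordered CIE 0h, CIE 8h, Ctrl 8h, Ctrl 0h, Ctrl 7d, Ctrl 72h, CIE 7d and CIE 72h from high to low. CIE 0h exceeded CIE 8h by 0.50, and CIE 8h exceeded Ctrl 8h by 0.40, each more than the larger SD of its pair. Every later step down was within the larger SD, from 0.08 to 0.11. The range of Ctrl means at 8h, 72h and 7d ran from 9.02 to 9.30, and the LIMMA F test of these Ctrl groups did not pass (FDR 0.678, with 2 of 45037 probesets or 0.00444% passing).

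At 8h Jun lay on the high side in CIE mice on 1448694_at and on the low side on 1417409_at. Neither difference passed the threshold. The 5 CIE mice had 9.35, 9.61, 9.61, 9.79 and 10.10 on 1448694_at, and the lowest, median and highest Ctrl values were 9.07, 9.24 and 9.78. All 5 CIE mice were above the Ctrl mean and 2 were above every Ctrl mouse, so the groups overlapped through Ctrl mouse 79. The difference was 0.40 (0.08 to 0.71, LIMMA FDR 0.0878), or 1.32-fold. At the study's threshold of FDR ≤ 0.01, 0 of the 4 Jun and Jund probesets were called at 8h, against 3.39% of all probesets. The difference was 0.23 in repeat group 1 and 0.57 in repeat group 2, and it was 0.37 (FDR 0.187) without mouse 15 and 0.49 (FDR 0.0472) without Ctrl mouse 79.

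At 72h and 7d the Jun values of the treatments overlapped on 1448694_at, with the CIE mean on the low side. Levels at 72h had lowest, median and highest values of 8.75, 9.07 and 9.29 in Ctrl mice and of 8.48, 8.86 and 9.03 in CIE mice. Levels at 7d were 8.94, 9.17 and 9.26 in Ctrl mice and 8.65, 8.91 and 9.22 in CIE mice. Some CIE mice were within the Ctrl range at each time. The difference was -0.23 at 72h (-0.53 to 0.07, FDR 0.539) and -0.21 at 7d (-0.51 to 0.09, FDR 0.508). None of the 4 probesets of the pair was called at either time, where 0.528% and 0.948% of all probesets were. On 1448694_at the ethanol difference was larger at 8h than at 72h by 0.62 (0.19 to 1.06, FDR 0.202) and than at 7d by 0.60 (0.17 to 1.04, FDR 0.0731). Neither test of a difference between times passed, where 0.00222% and 1.80% of all probesets did. The values at 0h were larger than at 8h by 0.61 and than at 72h by 1.23, given with no test.

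**Figure D2:**
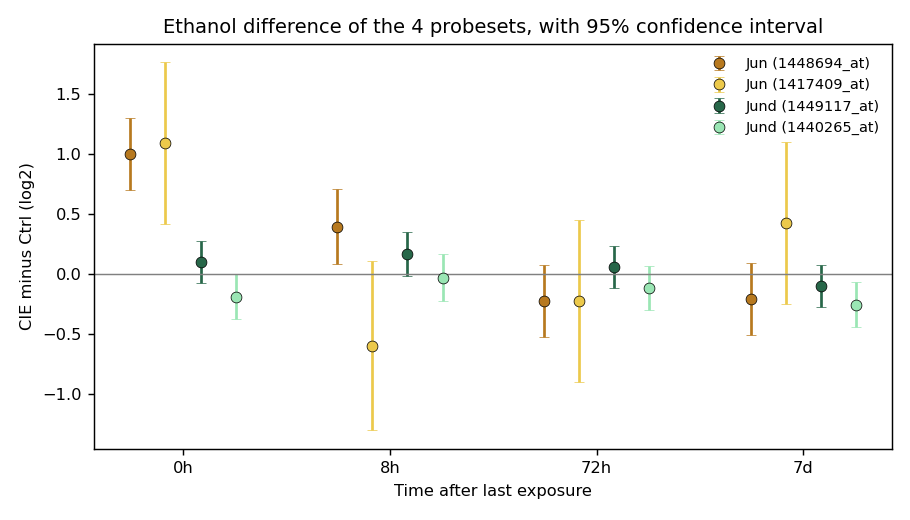
CIE minus Ctrl difference in log2 expression (points) with its 95% confidence interval (bars) for each Jun and Jund probeset at each time; the grey line marks no difference. Both Jun probesets lie near 1 at 0h and on opposite sides of 0 at 8h and at 7d, and the Jund points all lie between -0.25 and 0.17.

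The second Jun probeset, 1417409_at, gave a like difference at 0h and a different one afterwards. At 0h its lowest, median and highest levels were 6.85, 8.01 and 8.60 in Ctrl mice and 7.66, 8.93 and 10.18 in CIE mice, with 5 of 6 CIE mice above all Ctrl mice and a difference of 1.09 (0.42 to 1.77). At 8h CIE mice had 6.80, 7.50, 8.49, 8.80 and 8.96 against 8.34 to 9.05 in Ctrl mice. The low values came from the CIE mice of repeat group 2, and the difference of -0.60 (-1.30 to 0.11, FDR 0.260) was -0.07 within repeat group 1 and -1.45 within repeat group 2, and it was -0.445 (FDR 0.522) without mouse 15. Differences at 72h (-0.22, FDR 0.851) and 7d (0.43, FDR 0.559) did not pass either. Its group means ran from 8.95 in CIE 0h through 8.71 in Ctrl 8h, 8.23 in CIE 7d, 8.11 in CIE 8h, 7.91 in Ctrl 72h, 7.85 in Ctrl 0h and 7.81 in Ctrl 7d to 7.69 in CIE 72h, and only the step from Ctrl 8h to CIE 7d (0.48) exceeded the larger SD of its pair. Ctrl levels over 8h, 72h and 7d did not pass the F test (FDR 0.333).

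This probeset varied more between mice of a group than nearly any other. Its SD within groups was 0.60, at the 98.9 percentile of all probesets, although its mean level of 8.16 was at the 69.1 percentile. Its deviations from the group means followed how closely an array resembled the others, with Pearson's r = 0.51 and Spearman's rho = 0.56 over 47 arrays, and r = 0.75 over the 46 arrays without mouse 15. For 1448694_at these were r = -0.20 and rho = -0.41. The deviations of the 2 Jun probesets had r = 0.15 with each other over 47 arrays. These are descriptions with no test, and all values of a mouse share the array. With the mean correlation of an array as a model term, the difference of 1417409_at at 8h was -0.03 (FDR 0.970) in place of -0.60, while that of 1448694_at was 0.30 (FDR 0.304).

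**Figure D3:**
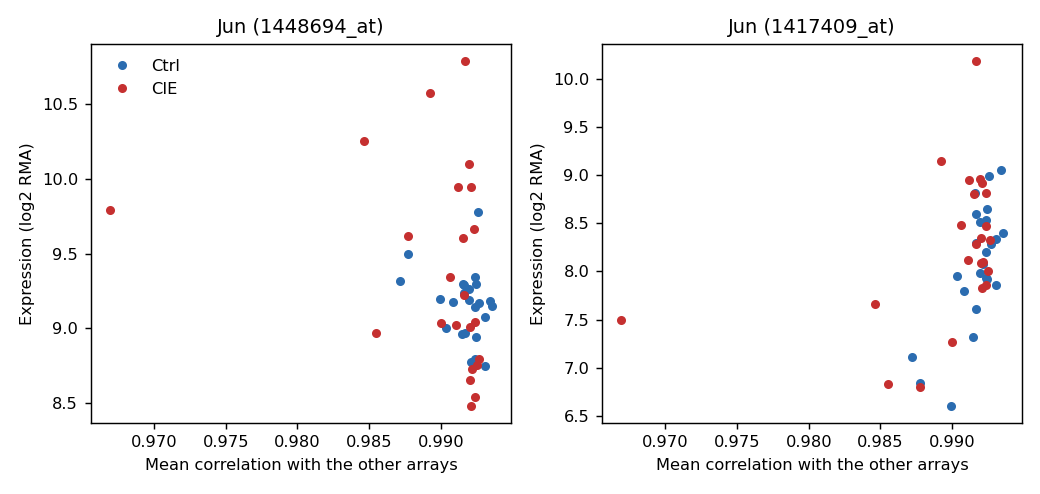
Log2 expression of each Jun probeset (vertical axes, different scales) in every mouse against the mean correlation of its array with the other arrays (horizontal axis; Ctrl blue, CIE red). Low values of 1417409_at are at arrays of lower correlation, with r = 0.51 for its deviations from the group means against -0.20 for 1448694_at, and the point at 0.967 is CIE 8h mouse 15.

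Jund differed little between treatments. On the bright probeset 1449117_at, whose mean level of 11.4 was at the 95.1 percentile, the lowest, median and highest levels at 0h were 11.38, 11.48 and 11.65 in Ctrl mice and 11.51, 11.58 and 11.66 in CIE mice. All 6 CIE mice were above the Ctrl mean, only 1 was above every Ctrl mouse, and the difference was 0.10 (-0.08 to 0.27). The 8 group means fell from 11.58 in CIE 0h and 11.49 in CIE 8h through Ctrl 0h, Ctrl 7d, CIE 72h, Ctrl 8h and CIE 7d to 11.29 in Ctrl 72h, and every neighbouring pair in this order was within the larger SD.

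At 8h the result for Jund rested on 1 array. Ctrl mice had lowest, median and highest values of 11.08, 11.33 and 11.50 on 1449117_at, and the CIE mice had 10.81, 11.61, 11.65, 11.68 and 11.70. Hence 4 CIE mice were above every Ctrl mouse and mouse 15 was below every one. The difference over all arrays was 0.17 (-0.02 to 0.35, FDR 0.221), and without mouse 15 it was 0.34 (FDR 0.00127), past the threshold. It was also past it with array weights, which count less similar arrays less (0.29, FDR 1.42e-04), and with the array correlation as a term (0.34, FDR 0.00904). Mouse 15 had the lowest array weight (0.10) and the lowest array correlation, so these settings are not separate from leaving it out. Within repeat group 1, where mouse 15 is not, the difference was 0.26 and did not pass (FDR 0.0202). It was -0.01 in repeat group 2, whose 2 CIE mice include mouse 15.

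At 72h Jund lay between 11.19 and 11.41 in Ctrl mice (median 11.26) and between 11.28 and 11.39 in CIE mice (median 11.35), for a difference of 0.06 (FDR 0.857). At 7d it lay between 11.26 and 11.46 in Ctrl mice (median 11.41) and between 11.20 and 11.38 in CIE mice (median 11.29), for a difference of -0.10 (-0.27 to 0.08). The treatments overlapped at both times. The ethanol difference at 8h exceeded that at 72h by 0.11 (FDR 0.729) and that at 7d by 0.26 (FDR 0.182), and Ctrl levels did not differ over time at the threshold (FDR 0.865).

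The other Jund probeset, 1440265_at, was dim, with a mean level of 4.63 at the 24.3 percentile and group means from 4.45 in CIE 7d to 4.74 in Ctrl 0h, every neighbouring pair within the larger SD. Its difference was -0.19 at 0h (-0.37 to -0.00), -0.03 at 8h (FDR 0.874) and -0.12 at 72h (FDR 0.645). At 8h it was 0.0082 without mouse 15, 0.02 within repeat group 1 and -0.12 within repeat group 2. At 7d it was lower in CIE mice by 0.25 on the log2 scale (FDR 0.117), with values of 4.14, 4.54 and 4.65 (lowest, median and highest) against 4.63, 4.70 and 4.84 in Ctrl mice. All 6 CIE mice were below the Ctrl mean at 7d and 5 were below every Ctrl mouse. The signs of the Jund probesets were opposite at 0h, 8h and 72h, and their deviations within groups had r = 0.25 over 47 arrays.

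Jun moved apart from other early genes at 0h. Early genes are switched on within minutes by neuronal activity or stress, and 43 others were listed, with Fos, Fosb, Fosl2 and Junb among them. At 0h, 34 of these 43 had a negative CIE minus Ctrl difference, with a median of -0.51 against -0.00 over all probesets, and the largest value upward was 0.41, below the 1.00 of Jun. The count called lower was 13 and higher 0, against 3.58% and 3.69% of all probesets (7.28% in either direction). Among those called, Klf10, a transcriptional repressor of the TGF-beta pathway, had -1.24, Egr1, a zinc finger factor, -0.90, Rgs2, a regulator of G protein signaling, -0.36, and Bdnf, a neurotrophin, -1.07. This list was drawn up with results of these samples known and its 0h values are no independent evidence of direction.

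**Figure D4:**
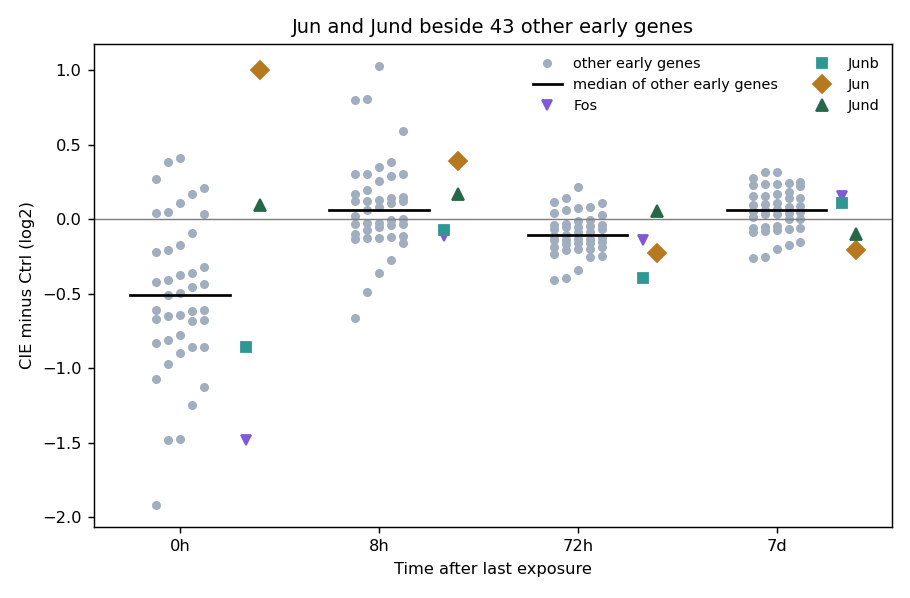
CIE minus Ctrl difference in log2 expression at each time for 43 other early genes (grey, median as a black line) and, to their right, Junb, Fos, Jun (1448694_at) and Jund (1449117_at); Fos and Junb are among the 43 and are drawn again in colour. At 0h Jun is above every other early gene and Fos is near the bottom, and at 72h and 7d all points lie between -0.41 and 0.32.

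Within each mouse, Jun on 1448694_at minus the mean of the 43 early genes gave 1.27, 1.44, 1.46, 1.65, 2.40 and 2.43 in CIE mice at 0h. In Ctrl mice it gave -0.66, 0.05, 0.37, 0.38, 0.57 and 0.83. The groups did not overlap, with a difference of 1.52. For Jund on 1449117_at the same quantity lay between 3.02 and 3.51 in CIE mice and between 1.95 and 2.99 in Ctrl mice, a difference of 0.62. Since Jund itself differed by 0.10, most of this 0.62 came from the lower early gene mean of the CIE mice. Jun minus Jund lay between -1.85 and -0.86 in CIE and between -2.60 and -2.16 in Ctrl mice, so that Jun was higher against Jund in all 6 CIE mice, by 0.90. Nothing is read from these 0h separations, which have no share of all probesets beside them. The pair was picked on this contrast, and the list was drawn up with results of these samples known.

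At later times these within-mouse quantities overlapped between treatments. At 8h, Jun minus the early gene mean was 0.27, 0.49, 0.91, 0.97 and 1.37 in the CIE mice and 0.12 to 0.88 in Ctrl mice. The difference of 0.30 had an exact permutation p of 0.184 (2-sided, adjusted 0.512 over 9 tests), and it was 0.26 without mouse 15 and 0.17 in repeat group 1 alone. At 72h and 7d the differences were -0.13 (exact p = 0.474, adjusted 0.533) and -0.27 (exact p = 0.290, adjusted 0.512). For Jund against the early genes the differences were 0.08, 0.15 and -0.16 at 8h, 72h and 7d, with exact p of 0.699, 0.108 and 0.398 and adjusted p of 0.699, 0.487 and 0.512. The 8h value was 0.23 without mouse 15 and 0.20 in repeat group 1 alone. Jun minus Jund differed by 0.23 at 8h (exact p = 0.366, adjusted 0.512), by -0.28 at 72h (exact p = 0.0541, adjusted 0.487) and by -0.11 at 7d (exact p = 0.245, adjusted 0.512). The 0.23 at 8h rested on mouse 15, without which it was 0.03 (adjusted 0.838), and it was -0.03 in repeat group 1 alone. At 72h all 6 CIE mice were below the Ctrl mean of Jun minus Jund. The smallest exact p that these designs allow is 0.00216.

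**Figure D5:**
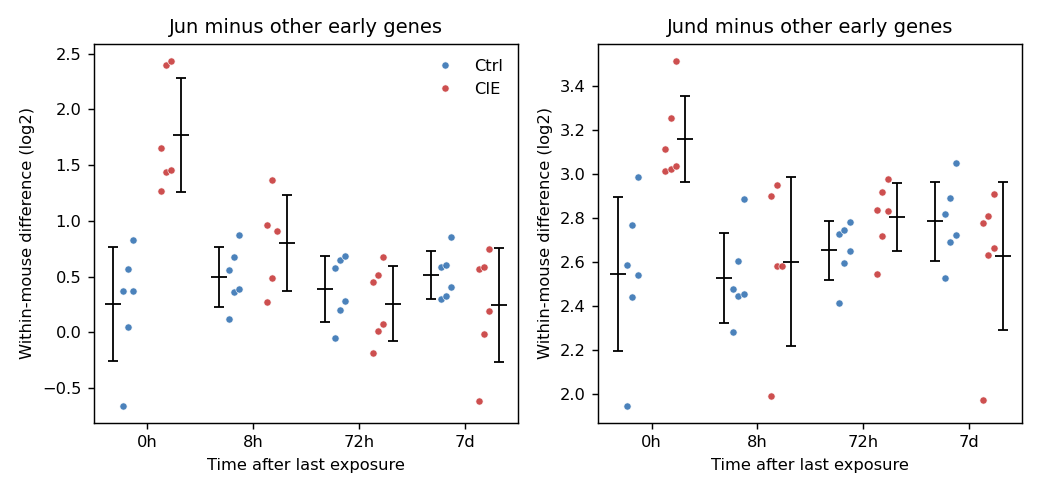
Log2 level of Jun (1448694_at, left) and of Jund (1449117_at, right) minus the mean of 43 other early genes in the same mouse, by time (points; Ctrl blue, CIE red; group mean and SD in black; vertical scales differ and do not start at 0). CIE mice lie above all Ctrl mice at 0h for Jun, by 1.52 on average, and for Jund, by 0.62, and the treatments overlap at 8h, 72h and 7d. The pair was picked on the 0h contrast, so its 0h values are a description.

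The best known AP-1 partners of Jun lay on the other side of 0 at 0h. Fos, the classical partner, had a difference of -1.48 at 0h, Junb, the third Jun gene, -0.86, Fosb, a Fos relative whose stable product builds up with repeated stimulation, -0.41, and Fosl2, which encodes the Fos-like protein Fra-2, -0.61. All 6 CIE mice were below the Ctrl mean for each of the 4. Over the 17 AP-1 partners measured, 11 were below 0 and 6 above it at 0h, with a highest value of 0.39 and a median of -0.06. Of the 17, 1 was called lower at 0h (Fos) and none higher, where 7.28% of all probesets were called in either direction. The 0h contrast served to pick the pair, so these values are a description.

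After 0h, Fos had differences of -0.11 at 8h (LIMMA FDR 0.881), -0.14 at 72h (FDR 0.928) and 0.15 at 7d (FDR 0.882). Junb had -0.07 (FDR 0.899), -0.40 (FDR 0.600) and 0.11 (FDR 0.897). Fosb had 0.30 (FDR 0.459), -0.15 (FDR 0.873) and -0.26 (FDR 0.649), and Fosl2 0.17 (FDR 0.693), 0.11 (FDR 0.908) and 0.25 (FDR 0.650). None of these relatives was called at the times when Jun was tested. The single AP-1 partner called after 0h was Batf2, a factor of the BATF family that pairs with Jun proteins. It rose at 8h by 0.53 (FDR 0.00114, 5 of 5 CIE mice above the Ctrl mean), and by 0.42 without mouse 15. It was not called in repeat group 1 alone (0.30, FDR 0.145), with the 8h arrays alone (FDR 0.0413) or with the array correlation as a term (FDR 0.0202). The mean levels of Batf2 and Fosb were below the median of all probesets. The call of Batf2 is 1 of 17, where 3.39% of all probesets were called at 8h. None of the 17 was called at 72h or 7d, where 0.528% and 0.948% of all probesets were. Batf2 had 0.33 at 72h (FDR 0.0669) and 0.16 at 7d (FDR 0.426). Maff, a small Maf factor, had 0.32 at 7d (FDR 0.247), and its relative Mafg -0.17 at 72h (FDR 0.461). The medians of the AP-1 partners were 0.17, 0.03 and 0.04 at 8h, 72h and 7d, against 0.01, -0.00 and -0.00 over all probesets.

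Among the 18 measured members of the JNK cascade, the kinases and scaffolds upstream of c-Jun phosphorylation, Map3k5 (ASK1, a stress-activated kinase) had -0.33 at 0h, where it was the only one called, and rose by 0.28 at 8h (FDR 0.00767), where it was again the only one. The share of all probesets called was 7.28% at 0h and 3.39% at 8h, so that 1 of 18 is near it at both times. The call of Map3k5 at 8h held in 3 of 11 fits that left out 1 mouse, and its difference was 0.23 without mouse 15. At 72h Map3k11 had -0.26 (FDR 0.0777) and Map3k1 0.40 (FDR 0.241). At 7d Map3k1, a kinase that activates the JNK pathway, had 0.68 (FDR 0.0180, 6 of 6 CIE mice above the Ctrl mean) and Map3k7 -0.09 (FDR 0.397). None of the 18 was called at 72h or 7d, where 0.528% and 0.948% of all probesets were. The medians of the cascade were -0.03, 0.03, -0.03 and -0.02 in order of time. Of the 10 genes for c-Jun turnover and coregulators measured, none was called at any time, with medians from -0.08 to -0.04. Nearest to the threshold at 8h was Ep300, an acetyltransferase that acts with AP-1 (0.44, FDR 0.0130), followed by its relative Crebbp (-0.36, FDR 0.0840). The ubiquitin ligase genes Cop1 and Fbxw7, whose products mark c-Jun for breakdown, had -0.17 and -0.15 at 0h. At 7d Fbxw7 had -0.14 (FDR 0.219) and Itch, another such ligase, -0.12 (FDR 0.440), and at 72h Cops5 had -0.23 (FDR 0.540) and Hdac3 -0.13 (FDR 0.545).

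Genes known as targets of AP-1 or c-Jun had medians near 0 at every time. All 21 were measured, with medians of 0.07, 0.01, 0.03 and 0.01 at 0h, 8h, 72h and 7d. At 0h, 2 were called, both lower, namely Ccnd1 (cyclin D1, -0.42) and Gal (the neuropeptide galanin, -0.27), beside 7.28% of all probesets. After 0h none was called, where the share of all probesets called was 3.39%, 0.528% and 0.948% at 8h, 72h and 7d, so a count of 0 in 21 is near the background. Gal had 0.25 (FDR 0.0244) and Ccl2, a chemokine, -0.41 (FDR 0.0572) at 8h, Ccl2 had -0.52 (FDR 0.0333) and Pdyn, the opioid peptide precursor prodynorphin, 0.77 (FDR 0.108) at 72h, and Itga7, a laminin receptor subunit, had 0.47 (FDR 0.0187) and Timp1, a metalloproteinase inhibitor, 0.25 (FDR 0.134) at 7d.

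At 8h Jun was at 0.40 on 1448694_at and at -0.60 on 1417409_at. At that time 4 of the 43 other early genes were called higher and none lower, where 2.28% and 1.11% of all probesets were. The list was drawn up with results of these samples known, so these counts are no independent evidence of direction. Egr3, a zinc finger factor, rose by 0.80 (FDR 0.00117), Nptx2, a neuronal pentraxin that gathers AMPA receptors, by 1.03 (FDR 0.00533), Homer1, a postsynaptic scaffold, by 0.31 (FDR 0.00674) and Ptgs2, cyclooxygenase 2, by 0.81 (FDR 0.00896). Over 11 fits that each left out 1 mouse, Egr3 was called in 11, Nptx2 in 6, Homer1 in 3 and Ptgs2 in 2, the lowest values being those without mouse 15. In repeat group 1 alone none of the 4 was called (FDR 0.190 to 0.372). The same held with the 8h arrays alone (FDR 0.0360 to 0.0768) and with the array correlation as a term (FDR 0.0182 to 0.0896). Egr3 differed by 0.40 in repeat group 1 and by 1.30 in repeat group 2, which holds mouse 15. None of the 43 was called at 72h or 7d, where 0.528% and 0.948% of all probesets were, so this is near the background. Those of smallest p were Pim1, a kinase (0.14, FDR 0.473), and Homer1 (0.12, FDR 0.477) at 72h, and Rgs2 (-0.15, FDR 0.173) and Maff (0.32, FDR 0.247) at 7d.

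Markers of the striatum, which lies next to the medial PFC, stood beside the Jun difference at 0h. All 16 measured striatal markers had a positive difference at 0h, with a median of 0.56 and none called, where 7.28% of all probesets were. Their mean lay between 8.37 and 8.73 in Ctrl mice at 0h, and in CIE mice it was 8.54, 8.55, 8.59, 9.30, 9.69 and 10.09. In the same order of CIE mice, Jun was 10.79, 9.66, 9.94, 10.25, 10.58 and 9.95 on 1448694_at. With the striatal mean as a term the 0h difference was 0.89 in place of 1.00 on 1448694_at, and 1.16 in place of 1.09 on 1417409_at. Over 47 arrays the deviations from the group means had r = 0.30 with those of the striatal mean for 1448694_at, and r = -0.09 for 1417409_at. The median of the striatal markers was 0.01 at 8h, 0.33 at 72h and -0.14 at 7d. The median differences of the other marker lists at 0h lay between -0.35 for 5 choroid plexus markers and 0.20 for 7 oligodendrocyte markers, and the part of these lists and of the striatal markers in the Jun difference was not tested.

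The variation of Jun between mice of a group was compared with that of all genes by Pearson's r of deviations from the group means over 47 arrays, as a description. On 1448694_at the closest genes were Sox11 (a developmental transcription factor, r = 0.75), Dpm3 (0.74), Myo1h (0.73), Ssr3 (0.72) and Hrk (0.71), the last of which promotes neuronal death, is known as a c-Jun target and was listed above among the targets. The most opposed were Tspan17 (-0.72), Cpne9 (-0.72), Timm10 (-0.71), Nxph1 (-0.71) and Syndig1 (-0.71). The r of 1448694_at with the AP-1 genes was negative as well, at -0.42 for Junb, -0.35 for Fos, -0.32 for Fosl2 and -0.12 for Fosb. With the mean of the 43 early genes it was -0.35 for this probeset and 0.07 for 1417409_at.

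For Jund on 1449117_at the likeness rested in part on mouse 15. The closest genes over 47 arrays were Usp34 (r = 0.86), Kdm6a (0.85), Baz2a (0.82), Resf1 (0.82) and Pa2g4 (0.82), and the most opposed Ddah1 (-0.80), Ccn5 (-0.79), Tox4 (-0.78), Mgat2 (-0.78) and Cct6a (-0.77). Without mouse 15, Usp34 was at 0.57 and Resf1 at 0.36, and other genes led, with Sorcs3 at 0.67, Dtna at 0.64 and Gspt1 at 0.63, and Ntpcr the most opposed at -0.65. Jun and Jund on their bright probesets had r = 0.29 with each other over 47 arrays, and 0.59 over the 46 without mouse 15. The r of Jund with Fos was 0.12, and 0.10 without mouse 15. With Junb it was 0.08 and turned to -0.12, and with Fosb it was -0.07 and turned to 0.23.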

How the data were processed

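Total RNA of medial PFC from single mice was hybridised to Affymetrix Mouse Genome 430 2.0 arrays. The authors deposited log2 expression values after RMA. Per the methods, quantile normalization was run across arrays and ComBat adjusted PFC for repeat group, which can distort differences at 8h. The sources used here give no versions of affy or ComBat. Values were used as deposited, with no filter. Groups came from the sample labels. GEO's annotation assigned 1 symbol to 34945 probesets, several to 932 and none to 9160, and 34741 symbols were updated through RefSeq (GRCm38.p6).

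A model with 8 group means was fitted to all 47 arrays with limma 3.58.1 in R 4.3.3, with Benjamini-Hochberg adjustment over 45037 probesets and calls at FDR ≤ 0.01, and was tested on simulated data. P-values measure the spread between mice, and the number of arrays limits precision. For a list gene the brightest probeset was used, with suffixes _s_at and _x_at last, and 169 of 180 list entries had a probeset with a single symbol. Within-mouse quantities were tested by exact 2-sided permutation at an adjusted threshold of 0.05. Named genes were all Jun and Jund probesets, 4 AP-1 relatives, up to 4 called genes of smallest p per list and time (or up to 2 where none was called), and the 5 most and least alike genes. Members and lists were chosen with earlier results of these data known. Alternatives were the arrays of a time point alone, repeat group as a term or alone, median centring, quantile normalization, the brighter probesets alone, array weights, trended robust moderation, the striatal mean as a term, other member probesets and each array left out. The array correlation as a term and likeness without mouse 15 were added after seeing the data.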

Additional observations from a re-analysis of the deposited data

Results flagged for a closer look

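In 32 sets, each a Jun or Jund probeset in 1 group, 2 had a mouse apart from the others of its group, where chance alone gives about 1 in 20. For Jun 1448694_at in Ctrl mice at 8h, mouse 79 was the highest at 9.78, with the others between 9.07 and 9.30. For Jund 1449117_at in CIE mice at 8h, mouse 15 was the lowest at 10.81, with the others between 11.61 and 11.70. The array of mouse 15 also had the lowest mean correlation with the other arrays, at 0.967.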

How the results depend on the processing

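No paired analysis was possible because the groups shared 0 mouse numbers. Alternatives that kept all mice of a contrast or 1 repeat group gave 253 values for the members, their tests and the counts of calls. Of these, 220 stayed the same. A tested value did so by keeping its direction and side of the threshold. A 0h difference did so by moving less than the pooled SD of its groups, and a count by staying within 1.5 times. The 0h differences could not move with the time point alone, repeat group as a term, the brighter probesets or trended robust moderation. A value short of the threshold kept its label at any size, as did Jun 1417409_at at 8h with -1.45 in repeat group 2 and -0.03 with the array correlation. Counts of values that stayed the same are therefore no measure of stability. The count of probesets called at 0h, 8h, 72h and 7d (3277, 1527, 238 and 427) was 2027, 21, 19 and 247 with the arrays of a time point alone, 1110, 856, 13 and 26 among the brighter probesets, where fewer were tested, and 5240, 6772, 881 and 2579 with array weights. It was 768, 455 and 825 at 8h, 72h and 7d with the array correlation as a term, and at 8h 3004 with repeat group as a term and 6329 in repeat group 2 alone. Leaving out each mouse gave 2165 to 2984 at 0h, 610 (without mouse 15) to 1860 at 8h, 125 to 285 at 72h and 200 to 539 at 7d, lowest without CIE mouse 5, 3 and 37 at 0h, 72h and 7d. Jund 1449117_at at 8h was at -0.013 in repeat group 2 alone and passed with array weights (0.29) and with the array correlation (0.34), with 0.12 to 0.34 over mice left out. Its 8h minus 7d difference of effects passed with array weights (0.39, FDR 3.34e-04). Jund 1440265_at at 8h turned to 0.021 in repeat group 1, 0.038 with array weights and 0.003 with the array correlation, with -0.078 to 0.0082 over mice left out. Jun 1417409_at turned to 0.029 with array weights in its 8h minus 72h difference. Read from 1417409_at, Jun minus the early genes turned to -0.69 at 8h and 0.36 at 7d, and Jun minus Jund to -0.77 at 8h and 0.52 at 7d. Read from 1440265_at, Jund minus the early genes turned to -0.12 at 8h and -0.021 at 72h, and Jun minus Jund to 0.046 at 7d. In repeat group 1 alone, Jun minus Jund at 8h was -0.029. Jund minus the early genes at 8h ranged from -0.012 to 0.23 over mice left out. Of 213 values for other named genes, 185 stayed the same by these rules, 21 were no longer past the threshold (Batf2, Map3k5, Egr3, Homer1, Nptx2 and Ptgs2 at 8h) and 7 turned. These were Junb at 8h (0.14 in repeat group 1, 0.056 with array weights, 0.36 with the array correlation), Fosb at 8h (-0.27 in repeat group 1, -0.15 with array weights), and Fos at 8h (0.037 with the array correlation) and at 72h (0.015 with the striatal term). Over mice left out, Fos ranged from -0.32 to 0.036 at 8h, from -0.25 to 0.047 at 72h and from -0.24 to 0.39 at 7d, and Junb from -0.21 to 0.075 at 8h and from -0.14 to 0.27 at 7d. The causes of these changes were not tested.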
